A study of Mus musculus with 4 samples.

Results

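The genes described here are 42 named genes, nearly all of the nucleolus and of ribosome biogenesis and listed as targets of Myc, together with Myc itself and the miR-155 host gene Mir155hg. They were chosen by name, with earlier results of these data known, and all 42 were found among the 31053 genes of the count matrices. Their RNA was measured cell by cell in CD45+ leukocytes that were sorted from small-intestinal Peyer's patches (organized lymphoid tissue of the gut) of female wild-type Taconic mice. The mice carried (SFB-positive) or lacked (SFB-negative) segmented filamentous bacteria, commensals of the ileal wall, and each group had 2 libraries. Per the labels, the patches of 5 mice were pooled in each group, and whether replicates 1 and 2 are separate pools is not given. The p-values between groups thus rest on the spread between libraries, which may be technical. With so few libraries, the edgeR fits between groups mostly pooled that spread over genes rather than taking it from each gene alone. The p-values between kinds of cell within a cluster concern differences within libraries, and those edgeR fits pooled the spread over genes too.

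The ribosome is built in the nucleolus, where RNA polymerase I makes the ribosomal RNA precursor. Small nucleolar ribonucleoproteins modify this precursor, and assembly factors cut it and fold it with ribosomal proteins into the small and the large subunit. Myc is a transcription factor that binds the E-box sequence with its partner Max and raises the output of nearly every step of this pathway. In B cells, Myc is known to be induced when antigen and T cell help are received, ahead of growth and division. Mir155hg is induced in activated B cells too, and mice without miR-155 make poor germinal centre responses.

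Cells were taken from the authors' table of 22569 cells, which gives each cell a cluster number from 0 to 6. The table holds 3408 and 7380 cells of SFB-positive replicates 1 and 2, against 4050 and 7731 cells of SFB-negative replicates 1 and 2. Their median depth was 1280 and 5864 UMIs (unique molecular identifiers, each counting 1 captured RNA molecule) per cell in SFB-positive libraries, against 1267 and 3252 in SFB-negative libraries. The cell with the most genes had 2991 and 5990 detected genes in SFB-positive libraries and 2980 and 3998 in SFB-negative libraries. The libraries numbered 1 shared 30 cell barcodes with each other, of which 13 were table cells in both, and the libraries numbered 2 shared 40, again with 13 table cells. The B-lineage markers Cd79a and Ms4a1 were present in every cluster compared. Levels are given as CPM, the UMIs of a gene per 1000000 gene UMIs of the cells summed. In cluster 2, Cd79a stood at 2331 and 1116 CPM in SFB-positive and 2468 and 1288 in SFB-negative libraries, whereas 8 T cell markers together reached 12.2 and 10.2 against 24.3 and 23.8. Also in cluster 2, 6 epithelial markers summed to 12.2 and 6.48 CPM in SFB-positive and 21.0 and 12.9 in SFB-negative libraries, led by Epcam (11.02 and 6.48 against 19.9 and 11.8) with Krt18 and Vil1 at 0. The 6 myeloid markers there summed to 149 and 132 CPM in SFB-positive and 176 and 167 in SFB-negative libraries. By their markers, clusters 0 and 1 are naive-like B cells, cluster 3 is germinal-centre-like (8 of 9 markers higher than in cluster 0 in all 4 libraries) and cluster 6 plasma-like. Clusters 2 and 4 are called by their numbers. In cluster 4, 5 of 7 memory markers were higher than in cluster 0 in all 4 libraries, with a median log2 ratio of 1.31, but so were 6 of 9 germinal centre markers, with a median of 1.85.

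The miRNA processed from the Mir155hg transcript is shown because Mir155hg is the member furthest above its level in cluster 0. The counts measure the host transcript and not the mature miRNA. The miR-155 hairpin lies at chr16:84714140-84714204 on the plus strand of GRCm38.p6, inside the Mir155hg gene at chr16:84703167-84715245. RefSeq gives these mature sequences, 5′ to 3′, with the seed (bases 2 to 8) in capitals:
mmu-miR-155-5p: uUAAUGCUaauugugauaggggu
mmu-miR-155-3p: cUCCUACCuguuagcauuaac
Of the 1738 mature mouse miRNAs of the RefSeq table, 1 has the 5p seed, which is miR-155-5p itself.

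Myc with Max is known to bind the letters CACGTG, which read the same on both strands. Promoters, taken as 250 bases before to 50 bases after the RefSeq start on GRCm38.p6, were found for 35 of the 42 genes. CACGTG stood in the promoters of 7 of the 35, or 20%, against 17 of 70 promoters (24.3%) of other ribosome biogenesis genes and 2187 of 27025 promoters (8.09%) of all genes. Each of the 7 promoters had 1 such site, and 6 of the 7 sites lay after the start. The sites are printed 5′ to 3′ on the strand of the gene, with CACGTG in capitals and up to 12 bases on each side.
Nop2, chr6:125131811-125131840, plus strand: gtgtccctggatCACGTGtgttccggtgcc
Utp20, chr10:88826765-88826789, minus strand: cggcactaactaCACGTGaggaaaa
Mettl1, chr10:127041950-127041979, plus strand: agctcggctctcCACGTGgactgcgtggca
Pes1, chr11:3963965-3963994, plus strand: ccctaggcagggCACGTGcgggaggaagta
Mybbp1a, chr11:72441355-72441376, plus strand: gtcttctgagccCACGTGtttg
Tsr1, chr11:74898092-74898121, plus strand: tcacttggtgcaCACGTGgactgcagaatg
Wdr43, chr17:71616220-71616249, plus strand: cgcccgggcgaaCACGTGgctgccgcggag
The related letters CACGCG or CGCGTG stood in 10 of the 35 promoters (28.6%), in 31.4% of the promoters of other biogenesis genes and in 10.5% of all promoters. A match describes the letters in this window and does not show that Myc binds there.

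All 42 genes were higher in cluster 2 than in cluster 0 of the same library, in each of the 4 libraries. The median gene was 3.09-fold higher, or 1.63 on the log2 scale, whereas the median over 11081 genes was 0.04 and 26.6% of those genes were higher in all 4 libraries. The members summed to 11648 and 10771 CPM in cluster 2 of SFB-positive libraries and 10563 and 9695 in SFB-negative libraries. Cluster 0 held 3784 and 3429 CPM in SFB-positive libraries and 3844 and 3385 in SFB-negative libraries. The authors' clusters were made from the same cells and genes, so these cluster levels are a description and carry no test. Cluster 2 held 10.8 to 12.1% of the table cells of SFB-positive libraries and 9.74 to 12.9% of those of SFB-negative libraries.

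**Figure D1:**
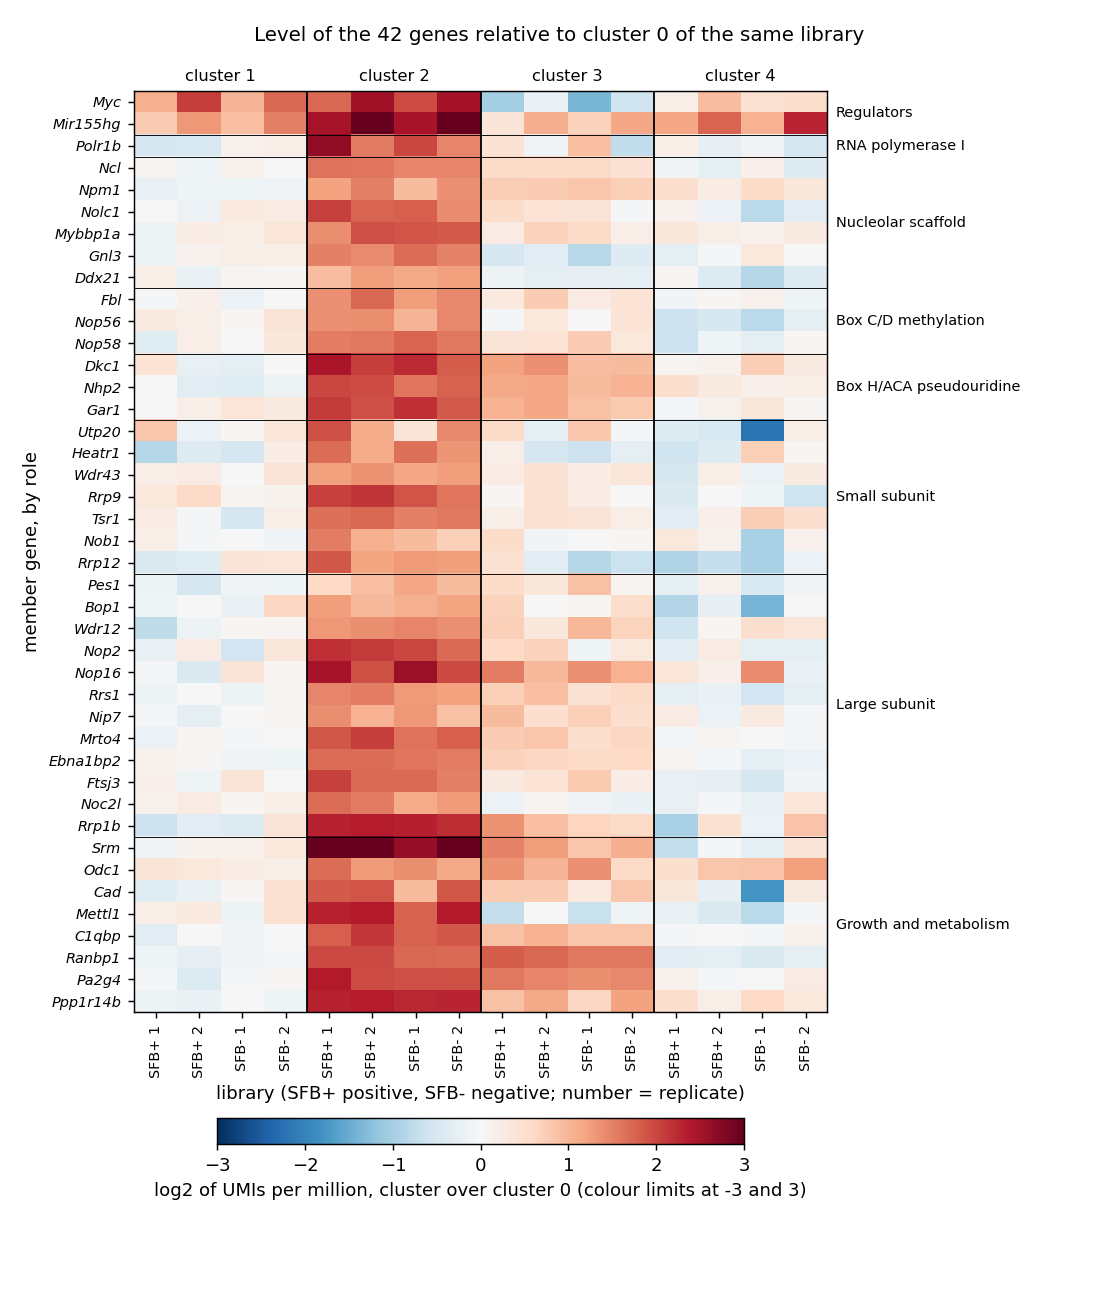
Each row is a gene, grouped by role, and each column a library (SFB+ positive, SFB- negative) within clusters 1 to 4. Colour gives the log2 ratio of CPM over cluster 0 of the same library: cluster 2 is red throughout, cluster 3 is red for 28 of the 42 genes in all 4 libraries while Myc is blue, and cluster 1 is red mainly for Myc and Mir155hg.

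Among the regulators, Myc had 321 and 239 CPM in cluster 2 of SFB-positive libraries and 433 and 193 in SFB-negative libraries. In cluster 0, Myc had 96.7 and 42.02 in SFB-positive and 112 and 34.4 in SFB-negative libraries. The ratio ran from 1.73 to 2.51 on the log2 scale, with a mean of 2.17 ± 0.39 (SD, n = 4 libraries). Mir155hg had 19.6 and 196 CPM in cluster 2 of SFB-positive libraries and 12.1 and 136 in SFB-negative libraries, against 3.40 and 13.6 and against 2.10 and 7.45 in cluster 0. Its ratio had the highest mean of the 42 genes, 3.24 ± 0.90 on the log2 scale. The level of Mir155hg also moved with the replicate number, and in cluster 2 it was 10.2-fold higher in the libraries numbered 2. The libraries numbered 1 rest on 16 and 11 Mir155hg UMIs in that cluster. Polr1b, a core subunit of RNA polymerase I, had ratios of 2.67 and 1.55 in SFB-positive and 2.01 and 1.47 in SFB-negative libraries on the same scale.

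The nucleolar scaffold and chaperone proteins had a median log2 ratio of 1.53. Ncl (nucleolin), which binds precursor RNA, had 1331 and 2181 CPM in cluster 2 of SFB-positive libraries and 1340 and 1960 in SFB-negative libraries. In cluster 0 it had 434 and 717 in SFB-positive and 486 and 713 in SFB-negative libraries. Npm1 (nucleophosmin), a histone and ribosomal protein chaperone, had 2494 and 2172 CPM in cluster 2 of SFB-positive libraries and 1887 and 2167 in SFB-negative libraries, against 1088 and 765 and against 972 and 844 in cluster 0. Npm1 has processed pseudogenes, and how the authors' counting treated reads shared with them is not given. Npm1 gave 17.9 to 22.4% of all members' UMIs in cluster 2 over the 4 libraries, and Ncl 11.4 to 20.3%. The remaining genes of the group were Nolc1 and Mybbp1a, Gnl3 (nucleostemin) and the RNA helicase Ddx21, which had the smallest ratio of the group at 1.14.

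The small nucleolar ribonucleoproteins split by class. The box C/D proteins, which act in methylation of ribosomal RNA, had ratios of 1.31 to 1.61. Fbl (fibrillarin), the methyltransferase, had 485 and 270 CPM in cluster 2 of SFB-positive libraries and 480 and 196 in SFB-negative libraries, against 188 and 81.2 and against 201 and 71.8 in cluster 0. Its partner Nop56 had 391 and 277 in cluster 2 of SFB-positive libraries and 374 and 219 in SFB-negative libraries, against 150 and 105 and against 183 and 81.1 in cluster 0. The box H/ACA proteins, which act in the conversion of uridine to pseudouridine, had ratios of 1.83 (Nhp2), 2.01 (Gar1) and 2.14 (Dkc1, the pseudouridine synthase). The 3 box H/ACA ratios thus lay above the 3 box C/D ratios, as a description of these few genes.

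The assembly factors of the small subunit, 7 genes, had ratios of 1.07 to 1.93. The highest was Rrp9, a protein of the U3 particle, and the lowest was Nob1, the nuclease of the final cut. Utp20 and Heatr1, large proteins of the processome, went with the replicate number: Utp20 was 5.69-fold and Heatr1 2.11-fold higher in the libraries numbered 2 within cluster 2. Of the large subunit, 12 genes had ratios of 0.91 to 2.31. Rrp1b led with 56.3 and 83.6 CPM in cluster 2 of SFB-positive libraries and 44.1 and 43.6 in SFB-negative libraries, against 11.2 and 16.2 and against 8.75 and 9.33 in cluster 0. Nop16 had 135 and 65.4 in cluster 2 of SFB-positive libraries and 131 and 58.3 in SFB-negative libraries, against 24.3 and 17.4 and against 21.7 and 14.8 in cluster 0. The smallest ratio of all 42 genes was that of Pes1, at 0.91. Pes1 forms a complex with Bop1 and Wdr12, whose ratios were 1.12 and 1.38.

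The remaining 8 genes serve growth and metabolism, and their ratios ran from 1.38 to 3.05. Srm (spermidine synthase, of polyamine synthesis) had 285 and 149 CPM in cluster 2 of SFB-positive libraries and 228 and 105 in SFB-negative libraries. In cluster 0, Srm had 32.6 and 15.3 in SFB-positive and 36.4 and 11.7 in SFB-negative libraries, so the ratio was at least 2.65 on the log2 scale in every library. Odc1, the rate-limiting enzyme of the same pathway, had 153 and 204 in cluster 2 of SFB-positive libraries and 153 and 239.5 in SFB-negative libraries, against 47.6 and 83.7 and against 58.1 and 109 in cluster 0. Its ratio of 1.38 lay below that of Srm in all 4 libraries. Cad, which opens pyrimidine synthesis, was scarce, at 15.9 and 19.6 CPM in cluster 2 of SFB-positive libraries and 9.93 and 16.8 in SFB-negative libraries, against 4.37 and 5.27 and against 5.25 and 4.58 in cluster 0. Ppp1r14b, an inhibitor subunit of protein phosphatase, had 182 and 212 in cluster 2 of SFB-positive libraries and 175 and 249 in SFB-negative libraries, against 36.9 and 41.2 and against 36.4 and 51.1 in cluster 0. Mettl1, which methylates transfer RNA, had a mean ratio of 2.21, Pa2g4 2.05, C1qbp 1.89 and the nuclear transport factor Ranbp1 1.84.

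The same ratio was smaller for the other lists of the pathway. The members and these lists were chosen with earlier results of these data known, so the order of their medians is a description only. Of 84 other ribosome biogenesis genes, 74 were higher in cluster 2 than in cluster 0 in all 4 libraries, with a median log2 ratio of 0.83. Of 13 other genes of RNA polymerase I and its initiation factors, 10 were higher in all 4, with a median of 0.66. All 45 other Myc targets were higher in all 4, with a median of 1.33, as were 19 of 21 B cell activation genes (median 1.26). The 15 genes listed as the Myc network, among them Max, the Mxd genes, Mycn, Mycl, Fbxw7, Bcl6 and Prdm1, had a median of 0.06. The 81 ribosomal protein genes had a median of 0.02, and they held 21.7 and 21.4% of the UMIs of cluster 2 in SFB-positive libraries and 20.3 and 30.2% in SFB-negative libraries, against 22.2 and 20.6% and against 20.5 and 29.9% in cluster 0.

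Within cluster 2, cells differed widely in the programme. Each cell was thinned to 1000 UMIs, and cells with fewer were left out. Cells with at least 10 of these UMIs from the 41 genes without Myc made up 55.1% and 47.0% of cluster 2 in SFB-positive libraries and 44.9% and 41.9% in SFB-negative libraries. In cluster 0 they made up 1.75% and 1.63% in SFB-positive and 1.75% and 0.828% in SFB-negative libraries. Cluster 2 supplied 69.8 to 76.4% of all such cells of SFB-positive libraries and 72.7 to 76.7% of those of SFB-negative libraries. The rest lay mostly in clusters 3 and 0. The middle of the distribution in cluster 2 was wide, with quartiles of 6 and 15 UMIs per cell in SFB-positive replicate 1 and of 5 and 13 in SFB-negative replicate 2.

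**Figure D2:**
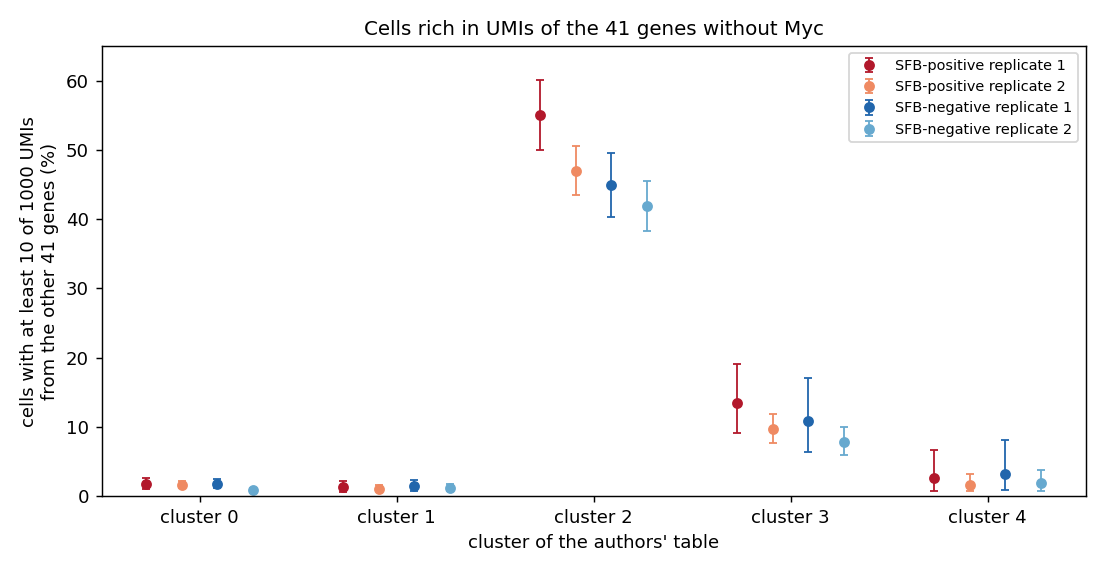
Points give, per library and cluster, the percent of cells with at least 10 of 1000 UMIs from the 41 genes without Myc, and bars the exact (Clopper-Pearson) 95% interval, which covers counting error only. Cluster 2 lies between 41.9% and 55.1% and cluster 3 between 7.79% and 13.5%, while cells of clusters 0, 1 and 4 stay at or under 3.25%.

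Cluster 1 stood above cluster 0 in Myc and Mir155hg but not in most other members. Myc stood at 201 and 176 CPM in cluster 1 of SFB-positive libraries and 227 and 114 in SFB-negative libraries. Relative to cluster 0 its log2 ratio was 1.05 and 2.06 in SFB-positive and 1.03 and 1.73 in SFB-negative libraries. Mir155hg was higher in all 4 libraries too, by a mean of 1.12 ± 0.35 (SD, n = 4). The median over the 42 genes was -0.01, and 7 genes were higher and 4 lower in all 4 libraries, where 15.5% and 11.9% of all genes were. The B cell activation genes had a median of 0.80 in this cluster, and 15 of 21 were higher in all 4 libraries.

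Cluster 3, the germinal-centre-like cells, showed the opposite. Myc stood at 47.5 and 36.5 CPM in SFB-positive libraries and 42.5 and 22.7 in SFB-negative libraries, which lies below cluster 0 in all 4 libraries, by a mean of -0.80 ± 0.51 on the log2 scale (SD, n = 4). The median gene was nevertheless 1.38-fold higher than in cluster 0, and 28 of 42 were higher in all 4 libraries, against 34.7% of all genes. Leading genes were Ranbp1 (log2 ratio 1.67), Pa2g4 (1.47), Nop16 (1.23), Srm (1.17) and Dkc1 (1.12), and all 3 box H/ACA proteins lay between 0.96 and 1.12. Besides Myc, Gnl3 (-0.51), Mettl1 (-0.38) and Ddx21 (-0.24) were lower in all 4 libraries. The members in cluster 3 summed to 6335 and 5380 CPM in SFB-positive and 6067 and 4974 in SFB-negative libraries. The cell cycle genes had a median log2 ratio of 5.66 in this cluster, and its cells were deep, with medians of 4144 and 17122 UMIs in SFB-positive and 4184 and 7359 in SFB-negative libraries. With every cell thinned to 1000 UMIs, the members' median log2 ratio of cluster 3 over cluster 0 was 0.48, against 0.47 unthinned.

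**Figure D3:**
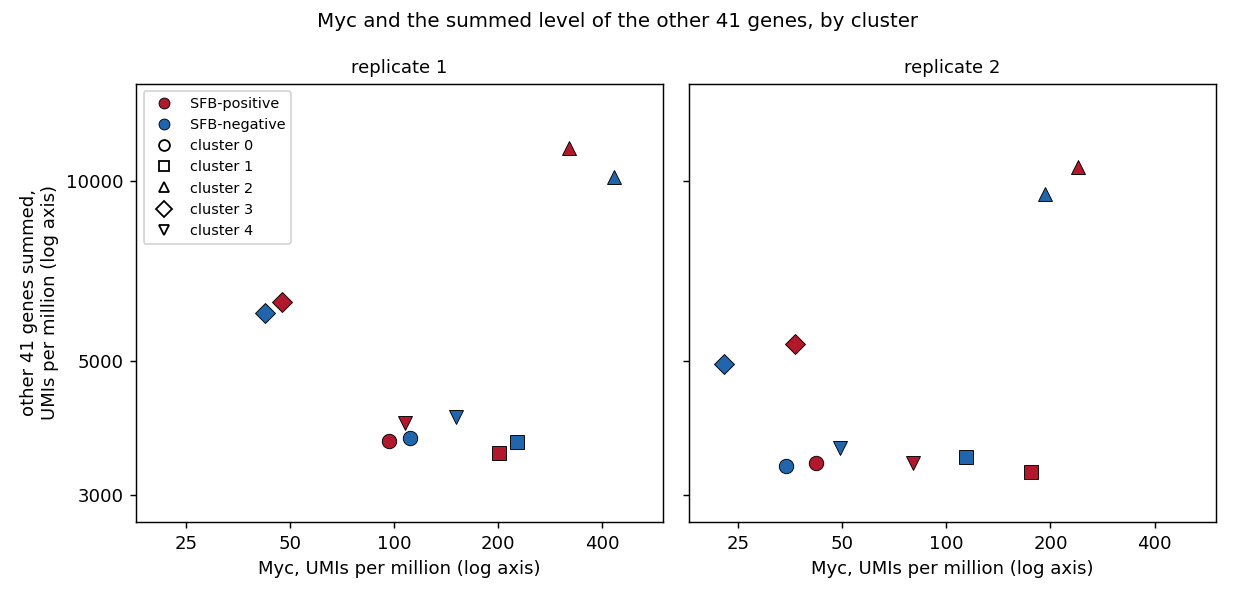
Each point is 1 cluster of 1 library, with Myc on the horizontal and the summed level of the other 41 genes on the vertical axis, both in CPM on log axes, by replicate number. Cluster 2 is high on both axes, cluster 1 is high for Myc only (201 and 176 in SFB-positive, 227 and 114 in SFB-negative libraries), and cluster 3 has low Myc beside a summed level of 6288 and 5344 in SFB-positive and 6025 and 4951 in SFB-negative libraries.

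In cluster 4 the members' median log2 ratio over cluster 0 was -0.05, and 8 of the 42 genes were higher and 7 lower in all 4 libraries, where 20.1% and 14.6% of all genes were. Mir155hg (1.56), Odc1 (0.85) and Myc (0.52) were the highest there. Plasma-like cluster 6 held 24 and 68 cells in SFB-positive and 6 and 30 in SFB-negative libraries. The members summed to 1021 and 1724 CPM there in SFB-positive and 902 and 2065 in SFB-negative libraries, and 26 of the 42 genes were lower than in cluster 0 in all 4 libraries, where 32.4% of all genes were. The median log2 ratio was -1.21 over the members and -0.43 over all genes. Srm was an exception in 3 of the 4, at 85.1 and 69.0 CPM in SFB-positive and 23.1 and 40.7 in SFB-negative libraries, where the value of 23.1 rests on 1 UMI. Mettl1 was higher than in cluster 0 in all 4 libraries, by 0.18 and 0.89 in SFB-positive and 0.99 and 1.21 in SFB-negative libraries on the log2 scale, although it rests on 8, 79, 4 and 19 UMIs there. Odc1 had 45.4 and 170 CPM in cluster 6 of SFB-positive and 69.4 and 169 in SFB-negative libraries. By CPM it lies above cluster 0 in 3 of the 4, and by the log2 ratio with 0.5 UMI added in all 4, at 0.01 in SFB-positive replicate 1. Cad was higher in all 4 by that ratio too, but rests on 1 and 16 UMIs in SFB-positive and 0 and 5 in SFB-negative libraries. Cluster 5 had 0 and 209 cells in SFB-positive and 1 and 258 in SFB-negative libraries and was not compared.

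A Myc UMI was found, after thinning, in 21.4% and 20.9% of the cells of cluster 2 in SFB-positive libraries and in 26.0% and 16.5% in SFB-negative libraries. In cluster 1 the share was 14.9% and 13.8% against 17.4% and 10.7%, in cluster 0 it was 7.89% and 4.09% against 9.23% and 2.97%, and in cluster 3 it was 4.50% and 3.37% against 5.44% and 2.36%. Plasma cells are known to repress Myc, and in plasma-like cluster 6 a Myc UMI was found in 1 of 126 cells over the 4 libraries, or 0.794% (exact 95% interval 0.0201 to 4.34%). The share in cluster 3 over the 4 libraries was 3.27% (2.52 to 4.17%), so these intervals overlap. In cluster 2 the share was 20.6% (19.0 to 22.3%). These intervals pool the cells of all libraries and cover counting error only, so they are no test between clusters. The library values of 26.0% and 16.5% lie outside the cluster 2 interval. Over all genes the median log2 ratio of cluster 6 over cluster 0 was -0.43, and its part in the low share was not tested. By an exact two-sided permutation test over libraries the SFB groups gave p = 1 in each of clusters 0 to 4, a test that cannot go below 0.333 with 2 against 2 libraries. Unthinned, the share in cluster 2 was 32.6% and 56.5% in SFB-positive and 36.2% and 39.2% in SFB-negative libraries.

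Whether the other members follow Myc from cell to cell was asked within a cluster, by summing thinned cells with and without a Myc UMI in each library. A cell without a Myc UMI after thinning may still hold Myc RNA. In cluster 2, 32.6 and 56.5% of unthinned cells had a Myc UMI in SFB-positive and 36.2 and 39.2% in SFB-negative libraries. After thinning the shares were 21.4 and 20.9% and 26.0 and 16.5%. The split thus parts cells by Myc only loosely and cannot settle whether a gene follows Myc. In cluster 2, among 38 members that passed the filter on low counts, Mir155hg was higher and 6 members were lower in cells with a Myc UMI at an adjusted p under 0.05 (edgeR quasi-likelihood test with the library as a block). Over all 3586 genes tested, 4.21% were higher and 1.31% lower. The members' median difference was -0.20 on the log2 scale, against 0.00 over all genes tested. The authors' clusters were made from the same cells and genes, so these genes may have helped to choose the cells before the split. What that choice adds to the differences and their p-values was not tested. The lower genes were Ppp1r14b, C1qbp, Ranbp1, Pa2g4, Nop56 and Npm1.

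Mir155hg had 24.4 and 462 CPM in cells with a Myc UMI of SFB-positive libraries, against 23.3 and 163 in cells without. In SFB-negative libraries it had 24.6 and 347 in cells with, against 11.5 and 124 in cells without. The difference was 1.46 ± 0.19 (SE) on the log2 scale, with an edgeR adjusted p of 3.9e-10, and it was higher in cells with a Myc UMI in all 4 libraries. In the libraries numbered 1 it rests on very few UMIs, and without either library numbered 2 the gene failed the filter on low counts.

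C1qbp had 354 and 174 CPM in cells with a Myc UMI of SFB-positive libraries, against 535 and 269 in cells without, and 246 and 186 against 457 and 253 in SFB-negative libraries (log2 difference -0.63 ± 0.16 SE, edgeR adjusted p = 0.0032). Ranbp1 had 672 and 210 against 983 and 373 in SFB-positive libraries and 649 and 186 against 739 and 339 in SFB-negative libraries (-0.52 ± 0.12, edgeR adjusted p = 0.0026). Ppp1r14b had 73.3 and 132 CPM against 199 and 193 in SFB-positive libraries and 41.1 and 218 against 207 and 250 in SFB-negative libraries, a fall by 0.79 on the log2 scale. Each of the 6 genes was lower in cells with a Myc UMI in all 4 libraries. The call of C1qbp was lost without SFB-negative replicate 1 (edgeR adjusted p = 0.0555), that of Ppp1r14b without the same library (0.164) and that of Ranbp1 without SFB-negative replicate 2 (0.0538).

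Npm1 fell by 0.26, with 1905 and 1517 CPM in cells with a Myc UMI against 2346 and 2054 in cells without in SFB-positive libraries, and 1691 and 1712 against 1779 and 2075 in SFB-negative libraries. Pa2g4 (439.7 and 149.9 against 522 and 295 in SFB-positive, 287 and 186 against 422 and 218 in SFB-negative libraries) and Nop56 (342 and 174 against 409 and 273, and 279 and 169.6 against 405 and 252) each fell by 0.49. The calls of Pa2g4 and Nop56 were lost when any 1 library other than SFB-positive replicate 1 was left out. That of Npm1 was lost without SFB-positive replicate 2 (edgeR adjusted p = 0.172) or SFB-negative replicate 2 (0.0545), and the calls of Npm1, Pa2g4 and Nop56 were lost in unthinned cells. All 6 differences stayed below 0 under these settings. Outside the 42, 13 of 19 tested B cell activation genes were higher and none lower, and the genes with the smallest p were Nr4a1 (1.06), Gadd45b (1.48), Nfkbid (1.29) and Cd83 (0.74), which respond to antigen receptor or NF-kB signals. Of other Myc targets, 6 of 38 tested were lower and none higher, among them Eif5a (-0.55) and Cct3 (-0.66).

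**Figure D4:**
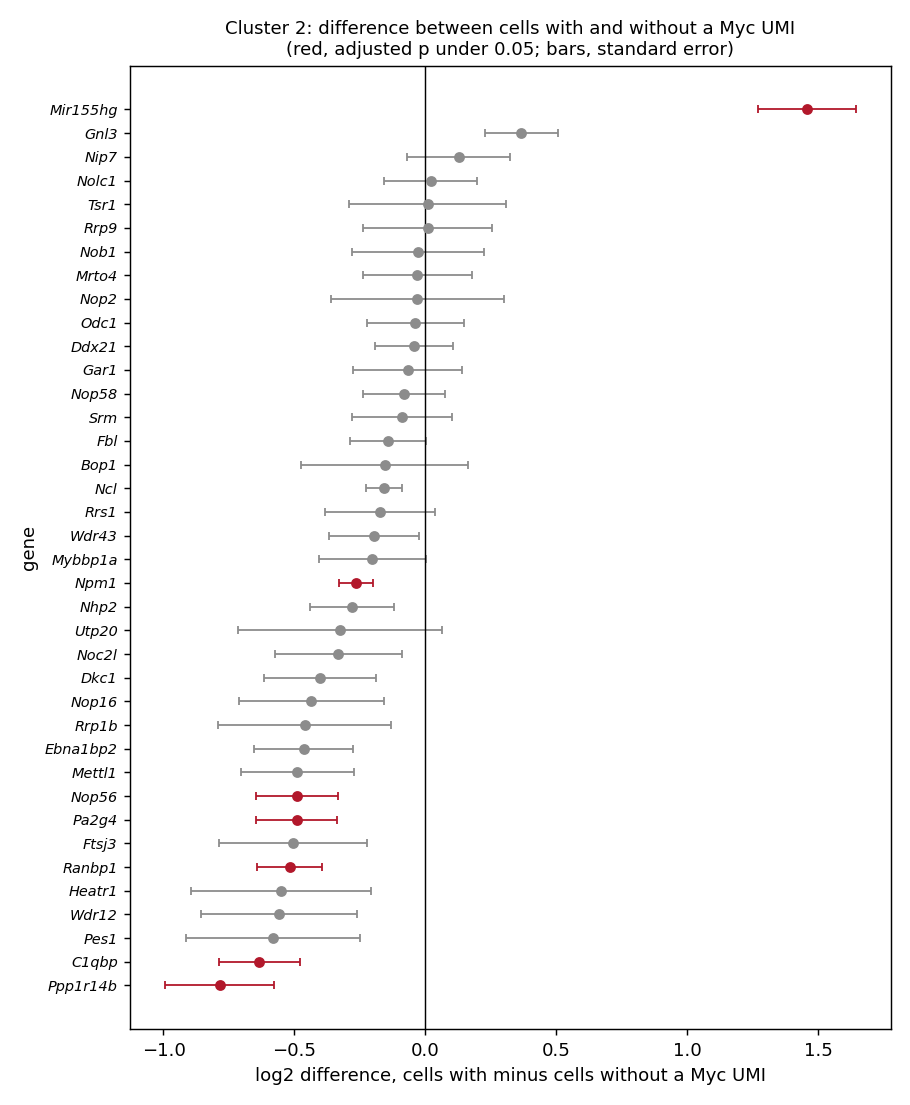
Points give the log2 difference of each of 38 genes in cluster 2 between cells with and cells without a Myc UMI after thinning, with standard errors, and red marks an adjusted p under 0.05. Mir155hg lies at 1.46, while 6 genes in red lie between -0.79 and -0.26.

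Depth moved with this split. In cluster 2, cells with a Myc UMI held a median of 1430.5 and 5946 UMIs in SFB-positive libraries and 1474 and 3453.5 in SFB-negative libraries before thinning, against 1797 and 7254 and against 1636.5 and 3927 in cells without. When the cells of each library were parted at their median depth, 1 member was higher and 6 were lower in the shallower cells, with a median difference of -0.32 over 29 members, where 3.16% of 1959 genes were higher and 1.53% lower and the median over all genes was -0.03. These 6 are not the same 6 genes as above, since C1qbp (edgeR adjusted p = 0.0772) and Pa2g4 (0.181) lost their calls in the shallower cells. In the deeper cells no member of 28 passed at an adjusted p under 0.05, 3 had an unadjusted p under 0.05, and the median difference was 0.01, where 2.30% of 1779 genes were higher and 0.506% lower and the median over all genes was -0.04. Without SFB-negative replicate 2 the members called numbered 2, without SFB-positive replicate 2 they numbered 3 and without SFB-negative replicate 1 they numbered 4. In cluster 0 no member of 36 tested passed (2 at an unadjusted p under 0.05, with 0.0953% of all genes higher and 0.0477% lower). The members' median there was 0.07, against -0.06 over all genes, and 11 of the 36 were below 0. In cluster 3 no member of 11 tested passed (1 at an unadjusted p under 0.05, with 0.0684% of genes higher and as many lower), the median was 0.24, against -0.12 over all genes, and 4 of the 11 were below 0. Unthinned cells of cluster 3 gave 10 members higher and none lower, led by Mir155hg (1.57), Rrp1b (0.78) and Srm (0.74), where 3.86% of 7330 genes were higher and 2.82% lower, but depth was not matched there.

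No member differed between SFB-positive and SFB-negative libraries at an adjusted p under 0.05 in all table cells or in clusters 0 to 4. The edgeR test carried the replicate number as a term, 42 members were tested (40 in cluster 4, where Polr1b and Cad were too low) and the adjustment ran over all genes. Of all genes, 3.61% were called in all table cells (0.929% higher and 2.68% lower), 2.16% in cluster 0 (0.236% higher and 1.92% lower) and 0.981% in cluster 1 (0.130% higher and 0.851% lower). In cluster 2 the share was 1.14% (0.258% higher and 0.886% lower), in cluster 3 it was 1.35% (0.375% higher and 0.972% lower) and in cluster 4 it was 1.53% (0.282% higher and 1.25% lower). At an unadjusted p under 0.05 the test gave 2 members in all table cells and 1, 0, 0, 1 and 1 in clusters 0 to 4, where 11.5%, 10.0%, 8.11%, 7.56%, 9.24% and 10.0% of all genes reached it. DESeq2 called no member either, with 1 at an unadjusted p under 0.05 in cluster 4 and 0 elsewhere. The median standard error of a member was 0.30 on the log2 scale in cluster 2, and differences well above that error could go undetected there. Genes of other lists called in cluster 2 with adjusted p values near the threshold were Mcm2 (1.03 ± 0.29 SE, edgeR adjusted p = 0.038) and Tyrobp (-1.02 ± 0.29, edgeR adjusted p = 0.037).

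In cluster 2 the members' differences, SFB-positive minus SFB-negative, had a median of 0.02 on the log2 scale and ran from -0.50 to 0.50. Myc differed by -0.23 ± 0.30 (SE), with -0.43 within replicate 1 and -0.05 within replicate 2. Mir155hg differed by 0.29 ± 0.33, Srm by 0.23 ± 0.29, Ncl by -0.10 ± 0.41, Npm1 by 0.02 ± 0.43, Fbl by 0.06 ± 0.30, Nop56 by 0.02 ± 0.30, Odc1 by -0.32 ± 0.30 and Cad by 0.06 ± 0.35. For Myc, Fbl, Nop56 and Srm the libraries numbered 2 lay below those numbered 1 in both groups, and the spread between replicate numbers exceeded the group difference. Within both replicate numbers 14 members were higher and 8 lower in cluster 2, where 24.0% and 25.2% of all genes were. In cluster 1 the numbers were 2 higher and 20 lower, where 26.9% and 23.2% of all genes were, and the members' median difference was -0.18. Cluster 0 gave 4 higher and 17 lower (25.1% and 25.2% of all genes, members' median -0.12). Cluster 4 gave 5 and 17 of 40 (25.6% and 26.5%, median -0.18), and cluster 3 gave 15 and 6 (29.1% and 20.2%, median 0.08).

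The members closest to the threshold were Odc1 and Rrp1b. Odc1 in cluster 4 had 65.7 and 150 CPM in SFB-positive libraries, against 104 and 256 in SFB-negative libraries, a difference of -0.94 ± 0.29 with an edgeR adjusted p of 0.073. It was lower within both replicate numbers (-0.60 and -1.10), although the groups overlap. Rrp1b in cluster 3 had 28.5 and 30.1 CPM in SFB-positive libraries, against 13.2 and 13.8 in SFB-negative libraries, a difference of 0.95 ± 0.33 with an adjusted p of 0.163 by the edgeR test. The Rrp1b values of the groups do not overlap, and its differences in cluster 2 (0.50) and in all table cells (0.44) were also above 0.

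**Figure D5:**
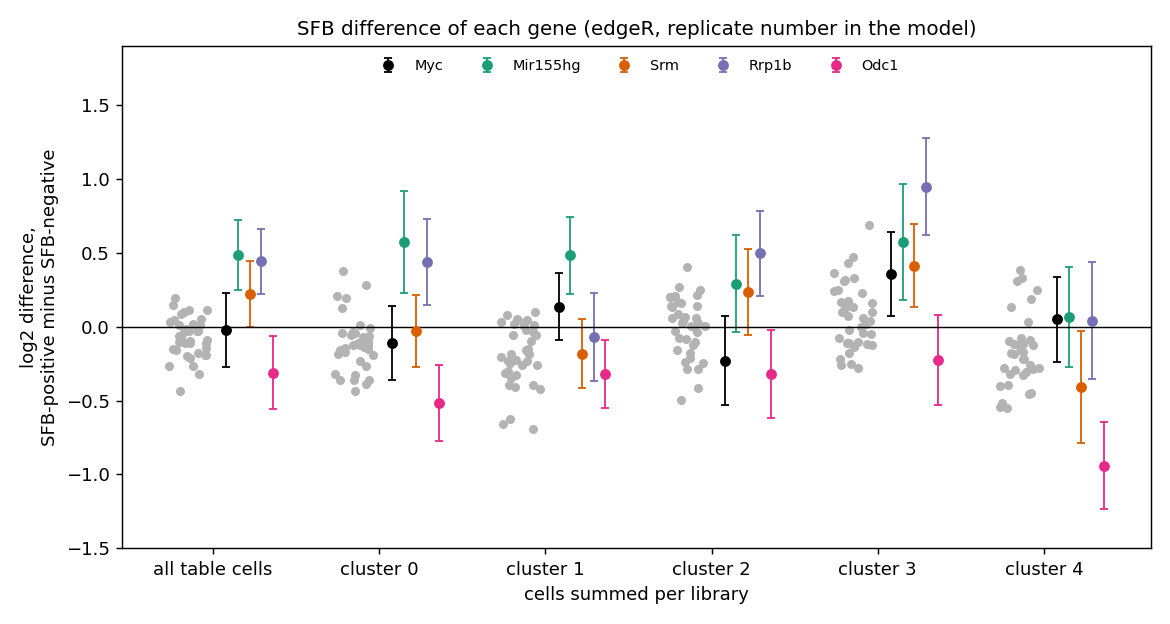
Each point is the log2 difference of 1 member, SFB-positive minus SFB-negative, from the edgeR fit with the replicate number, in all table cells and in clusters 0 to 4; grey points are 37 genes and coloured points 5 named genes with standard errors. The points lie around 0, from -0.94 (Odc1 in cluster 4) to 0.95 (Rrp1b in cluster 3), and none passed the adjusted threshold.

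The SFB difference of cluster 2 was not detectably different from that of cluster 0. In the test of the interaction, with the library as a block, no member of 42 passed and none had an unadjusted p under 0.05, while 0.00998% of 10024 genes passed and 2.99% had an unadjusted p under 0.05. The interaction of cluster 3 with cluster 0 gave no member either, where 0.0461% of 10840 genes passed and 2.08% had an unadjusted p under 0.05. The fits without the replicate block called no member in these tests.

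Of the other genes of the pathway, the 84 other ribosome biogenesis genes and the 13 of RNA polymerase I gave no call in any class. Of 45 other Myc targets, Ccnd2 (cyclin D2) was higher in SFB-positive libraries in all table cells (log2 difference 0.90 ± 0.25, edgeR adjusted p = 0.015), in cluster 0 (0.95) and in cluster 1 (1.01). It had 187 and 136 CPM in all table cells of SFB-positive libraries, against 114 and 50.8 in SFB-negative libraries. Of the B cell activation genes Batf was higher in cluster 1 (1.10) and in all table cells (0.71), and of the cell cycle genes Mcm2 was higher in cluster 2 (1.03), Cenpf, Mki67 and Rrm2 were higher in all table cells. Birc5 was called lower in cluster 0 (-1.97), but its 3.40 and 1.20 CPM in SFB-positive and 0.70 and 7.28 in SFB-negative libraries put it higher within replicate 1 and lower within replicate 2. Without the replicate number as a term no gene was called in any of these classes. Markers of other cell types moved with the groups too. In all table cells 2 of 7 plasma cell genes were higher, Jchain (1.41) and Derl3 (0.71), while the epithelial gene Epcam (-0.95), the myeloid genes Fcer1g (-2.24), Lyz2 (-1.49) and Tyrobp (-0.73) and the red cell gene Hbb-bt (-1.13) were lower. Within clusters, Tyrobp was lower in cluster 2 (-1.02), Epcam in clusters 0 (-1.26) and 4 (-1.28) and Hbb-bt in cluster 3 (-1.68). The T cell gene Cd3g was called lower in cluster 0 (-3.50), at 1.46 and 0.0753 CPM in SFB-positive and 1.40 and 3.27 in SFB-negative libraries, a fall seen within replicate 2 alone. The part of these markers in the differences was not tested. Cenpf, Mki67, Rrm2, Jchain and Derl3 were called in all table cells but in none of clusters 0 to 4. Cluster 3 held 5.96 and 11.2% of the table cells in SFB-positive and 3.65 and 9.30% in SFB-negative libraries. Plasma-like cluster 6 held 0.704 and 0.921% against 0.148 and 0.388%. What these shares add to the calls in all table cells was not tested. Among the ribosomal protein genes only Rps27rt, a near-copy of Rps27 whose reads may be split between both, was called, and it was lower in every class tested. The share of ribosomal protein UMIs in all table cells was 20.7 and 19.0% in SFB-positive libraries, against 19.9 and 28.2% in SFB-negative libraries, and with it the median over all genes without composition scaling stood 0.32 higher on the log2 scale in SFB-positive than in SFB-negative replicate 2. The differences above are scaled for composition by TMM. With library totals only, the median in cluster 2 was 0.20 over the members and 0.21 over all genes, and Ncl, at -0.10 with TMM, was at 0.07.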

How the data were processed

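Single-cell libraries were made with 10x Genomics 3′ chemistry from sorted CD45+ cells, with about 6000 cells loaded and 4000 targeted per library. The deposited matrices hold raw UMI counts per gene and cell barcode, made with Cell Ranger 6.0.0 (replicates 1, which also carry 15 antibody tags, not used here) and 7.0.0 (replicates 2) per the file headers, and with 5.0.1 on mm10 per the submitters' processing notes. The authors' deposited cell table gives each cell a cluster number, its UMI and gene counts, a mitochondrial percent and a unitless UMAP position (a score, not used). How the authors filtered, checked for doublets and clustered is not stated, no doublet caller was run here, and the table's library codes were matched to the matrices by group code and cell barcodes.

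UMIs were summed per library and cluster. Groups were compared with edgeR 4.0.16 (quasi-likelihood, robust, TMM, filterByExpr, Benjamini-Hochberg over all genes tested, threshold 0.05) in R 4.3.3, with the replicate number as a term, and with DESeq2 1.42.0 as an alternative. The replicate number comes from the titles and goes with the Cell Ranger version, the antibody tags and the depth. The scripts were tested on simulated data. Thinning drew 1000 UMIs per cell without replacement. Cluster ratios are log2 of CPM with 0.5 UMI added, and 95% intervals are exact binomial and cover counting error only. Alternatives were another scaling, no filter, cells with at most 2500 genes, no replicate term and each library left out. The split of cluster 2 at the median depth was chosen after seeing the data. Values in every library are given for members past the threshold in a group or Myc UMI comparison, for Myc, Mir155hg, Srm, Ncl, Npm1, Fbl, Nop56, Odc1 and Cad, and for the 5 highest ratios of cluster 2 over cluster 0. The members and lists were chosen with earlier results of these data known.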

Additional observations from a re-analysis of the deposited data

How the results depend on the processing

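No member was called between SFB groups under any alternative run. The number of all genes called was not stable: without the replicate block it was 0 in all table cells, in each of clusters 0 to 4 and in both interaction tests, against 443, 229, 98, 102, 133 and 130 (all table cells, clusters 0 to 4) and 1 and 5 (interactions of clusters 2 and 3) with it. DESeq2 called 22, 5, 7, 5, 5 and 4 in the same order. Library totals gave 128, 57, 110, 32, 44 and 47, and cells with at most 2500 genes gave 18, 154, 7, 23, 4 and 8. In cluster 1, upper-quartile scaling gave 61 and no filter 188. With 1 library left out and no replicate term, the lone library of a group was assumed to vary like the other group, and the ranges were 0 to 3, 0 to 3, 0 to 2, 0 to 4, 0 to 7 and 0 to 0.

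Differences near 0 changed sign, and the cause was not tested. Myc in all table cells, at -0.02, was at 0.0031 with upper-quartile scaling, 0.14 with library totals, 0.0078 without a filter, 0.21 with at most 2500 genes and 0.022 by DESeq2, and -0.63 to 0.77 with 1 library left out. With at most 2500 genes, Srm in all table cells was at -0.0080, and in cluster 2 Myc was at 0.23, Npm1 at -0.11 and Cad at -0.21. Library totals put Ncl in cluster 2 at 0.073. With 1 library left out, all table cells gave -1.26 to 2.50 for Mir155hg and -0.67 to 1.14 for Srm. In cluster 2 the ranges were -0.72 to 0.37 for Myc, -1.98 to 3.01 for Mir155hg, -0.49 to 0.91 for Srm, -0.39 to 0.29 for Ncl, -0.24 to 0.29 for Npm1, -0.65 to 0.80 for Fbl, -0.43 to 0.44 for Nop56, -0.63 to 0.13 for Odc1 and -0.12 to 0.76 for Cad.

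In the split by a Myc UMI, unthinned cells gave 251 genes and 2 members in cluster 0, against 9 and 0 thinned. They gave 651 genes and 5 members in cluster 2 (198 and 7 thinned) and 490 genes and 10 members in cluster 3 (2 and 0 thinned). Of the 5 members in cluster 2, 2 were higher and 3 lower, where 457 and 194 of 7314 genes were. The members' median there was -0.09, against -0.03 over all genes. In cluster 2, cells up to the median depth gave 92 genes, and cells over it 50 genes and 0 members. With 1 library left out, genes called were 4 to 9 in cluster 0, 100 to 172 in cluster 2 and 0 to 1 in cluster 3, and members in cluster 2 were 2 to 7. The members' median in cluster 4 over cluster 0 was 0.025 thinned and -0.13 with at most 2500 genes, against -0.05. The difference in the share of cells with a Myc UMI, SFB-positive minus SFB-negative, was 2.81 points in cluster 0 and 6.86 points in cluster 2 unthinned, against -0.11 and -0.08 points thinned.

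Low counts limit Mir155hg in the libraries numbered 1 and kept Polr1b and Cad out of the SFB test in cluster 4. Each SFB group had 2 libraries, so the replicate number, the Cell Ranger version and the depth cannot be told apart. Depth also differed between the groups within replicate 2, with medians of 5863.5 UMIs per cell in SFB-positive and 3252 in SFB-negative libraries. The replicate term does not take up that difference, and there depth cannot be told apart from the SFB group.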
